A study of Mus musculus with 2 samples.

Results

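Spp1-high macrophages were taken from 2 single-cell RNA sequencing libraries of mouse lung cells, 1 from Pclaf WT and 1 from Pclaf KO mice. Barcodes were kept if their number of genes lay between 200 and 5000 and mitochondrial UMIs stayed below 20%, a UMI (unique molecular identifier) being 1 captured RNA molecule. A kept cell was a member if Spp1 took at least 10 of every 10000 UMIs and at least 3 of the macrophage genes Fcer1g, Tyrobp, Ctss, Cd68 and Lyz2 were detected. It also had to show fewer than 3 of the alveolar macrophage genes Chil3, Marco, Ear1, Siglecf, Krt79, Fabp1 and Plet1, and no UMI of the T cell gene Cd3e, the B cell gene Cd79a, the epithelial gene Epcam or the fibroblast gene Col1a2. Fewer than 3 of the proliferation genes Mki67, Top2a, Birc5, Cenpf and Ube2c were allowed. The rule found 1518 cells among 45824 kept cells, 1430 of 30187 in WT and 88 of 15637 in KO. The members were thus chosen by measured levels of Spp1 and of the other genes named here, which are described below and not offered as findings.

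The mice were 8 to 10 weeks old and had received bleomycin (1.35 U/kg in the series' design text, though the study's own methods and results give other doses), a drug that injures the alveolar epithelium, 1 week before the lungs were digested. Pclaf KO is a germline deletion of a PCNA-binding factor, so macrophages carry it as well as epithelial cells. The labels describe an epithelial sort (Cd31-, Cd45-, Epcam+), and CD45 is carried by every macrophage, so the members are cells that such a gate should have left out. Their shares therefore describe these libraries and not the lungs. No label says how many mice each library pooled, and no uninjured lung was analysed here. The methods name male mice, but both libraries held cells with Xist and cells with Y-linked UMIs (116 and 343 of the WT members, 19 and 1 of the KO members, with 34 and 1 further members holding both).

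As background, Spp1 encodes osteopontin, a secreted phosphoprotein that binds integrins and CD44 through which it acts on adhesion, migration and matrix deposition. Macrophages that make much osteopontin accumulate in injured and fibrotic lungs, where they sit between recruited monocytes and mature tissue macrophages, and they carry a gene programme of lipid uptake, lysosomal digestion and matrix remodelling. Interstitial macrophages of the healthy lung instead express complement C1q and present antigen on MHC class II, and alveolar macrophages clear surfactant.

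The promoter of Spp1 is shown because its transcript defines the cells. Spp1 (ENSMUSG00000029304) lies at chr5:104435111-104441053 on the plus strand of GRCm38.p6, the RefSeq assembly of the reference tables and the build the reads were aligned to. The 250 bases before its first transcription start (chr5:104434861-104435110) and before that of Gpnmb, a lysosomal membrane glycoprotein gene that accompanied it (chr6:49036268-49036517, plus strand), read as follows, with AACCACA in capitals.
Spp1: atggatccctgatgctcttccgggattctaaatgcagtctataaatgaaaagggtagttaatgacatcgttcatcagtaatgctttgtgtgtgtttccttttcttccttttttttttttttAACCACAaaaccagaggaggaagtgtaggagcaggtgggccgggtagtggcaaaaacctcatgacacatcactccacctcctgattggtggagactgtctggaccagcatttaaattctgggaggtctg
Gpnmb: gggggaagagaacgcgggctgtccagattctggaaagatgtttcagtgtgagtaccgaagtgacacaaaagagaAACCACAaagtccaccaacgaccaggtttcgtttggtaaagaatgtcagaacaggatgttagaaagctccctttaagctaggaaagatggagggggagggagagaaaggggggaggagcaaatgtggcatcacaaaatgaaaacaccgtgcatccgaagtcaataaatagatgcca
AACCACA is the core that RUNX factors bind, and it was searched for after the Spp1 sequence had been seen. It stood 129 bases before the start of Spp1 and 176 before that of Gpnmb, and on either strand in 5.08% of the 27025 genes with such a window. Of the 10 programme genes with a window Gpnmb was the 1 that held it, and 0 of 14 lysosomal genes did. A match is a run of letters and shows no binding.

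Depth differed among the members and has to be read beside every value. The WT library held 98171818 UMIs on 30669 barcodes and the KO library 111267567 UMIs on 17172, and the members held 5453787 and 264458 of them. A member had a median of 1230 UMIs and 647.5 genes in WT, and of 788 UMIs and 405.5 genes in KO. The cells fell into a shallow and a deep cloud: in WT 649 members (45.4%) had under 1000 UMIs and 557 (39.0%) had at least 3000, against 55 (62.5%) and 22 (25%) in KO. In KO the deepest cell gave 10.8% and the 5 deepest 32.7% of all member UMIs, so summed KO values rest on few cells. Of the 163 barcode sequences found in both libraries, 11 belonged to WT members and 2 to KO members. Intervals below are 95% and cover counting error only. Each genotype is a single library, so no difference has a replicate check and no test was made.

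**Figure D1:**
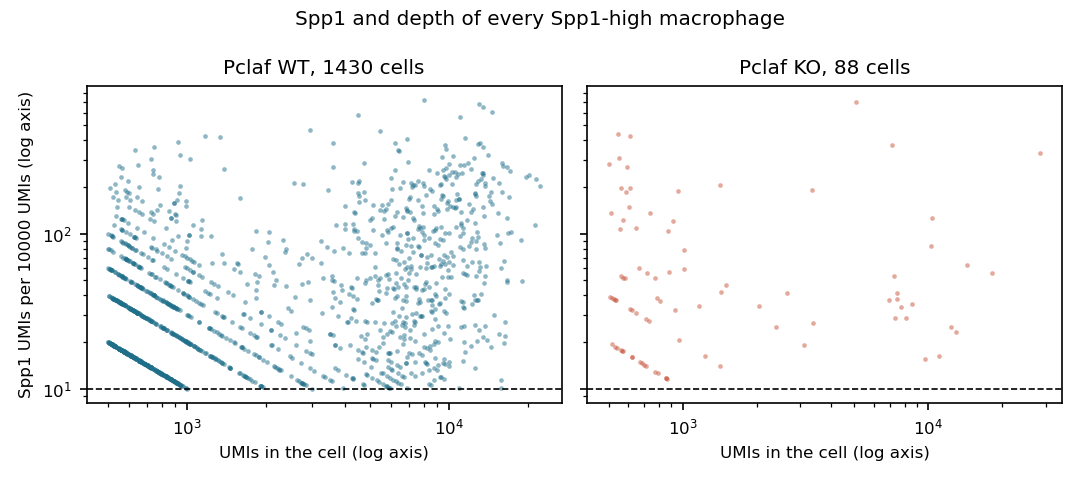
Each point is 1 Spp1-high macrophage, with its UMIs on the x axis and its Spp1 UMIs per 10000 UMIs on the y axis (both log axes), WT on the left (1430 cells) and KO on the right (88 cells). The dashed line is the threshold of 10, and the diagonal stripes at the left are shallow cells with 1, 2 or 3 Spp1 UMIs.

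The members made up 4.74% of kept cells in WT (interval 4.5002 to 4.98) and 0.563% in KO (0.452 to 0.693). Without its Spp1 and alveolar conditions the rule is a myeloid gate, which 7264 WT and 429 KO barcodes passed. It is not a gate for macrophages alone, since the 4132 WT barcodes in it with 0 Spp1 UMIs, alveolar macrophages left out, held 6418 CPM of neutrophil genes against 1608 in all kept WT cells other than members. Of the barcodes in this gate the members were 19.7% in WT (18.8 to 20.6) and 20.5% in KO (16.8 to 24.6), so the intervals of this share overlapped. Over 11 alternative settings this share ran from 7.17% to 25.1% in WT and from 8.39% to 33.3% in KO. It left its interval in 10 of them in WT and 7 in KO. The lower share of all kept cells in KO cannot be told apart from how the sort was made, since 59.6% of kept KO cells and 5.47% of kept WT cells passed an epithelial gate.

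Spp1 itself was counted at a median of 5 UMIs per member in WT and 6 in KO. A single Spp1 UMI qualified 276 WT members (19.3%) and 17 KO members (19.3%), which was possible only in cells of at most 1000 UMIs. The level ran from 10.0 to 722 per 10000 UMIs in WT, with a median of 34.6, and from 11.6 to 708 in KO, with a median of 37.8. The rule sets the lower end of both ranges, so their likeness there is no finding. Just inside the threshold (10 to 12 per 10000) 104 WT cells had 189 Gpnmb, 451 Cd68 and 3060 Ctss counts per 1000000 UMIs (CPM). Just outside it (8 to 10) 122 cells had 145 Gpnmb, 363 Cd68 and 2870 Ctss CPM. The threshold therefore cut through a continuum. In KO only 3 and 5 cells lay in these ranges.

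The members had the highest Spp1 level of the classes compared. Summed over members, Spp1 stood at 9651 CPM in WT (9569 to 9734) and 10376 in KO (9991 to 10772), and they held 50.3% and 28.6% of all Spp1 UMIs of kept cells, with 939 of the 2744 KO UMIs in 1 cell. Alveolar macrophages, cells with at least 3 of the 7 alveolar genes, followed with 2086 CPM in WT and 1444 in KO. Mesenchymal cells with fewer than 2 of the macrophage genes had 653 and 199 CPM. Lymphocytes, also with fewer than 2 macrophage genes, had 111 CPM in WT with a UMI in 9.75% of cells, and 3.42 CPM in KO with a UMI in 1.45%, on median depths of 2140 and 3113 UMIs. These lymphocyte values are taken as the background that free RNA can give. A further 1788 WT and 133 KO kept cells reached 10 per 10000 but failed another condition of the rule, and held 45183 and 5813 Spp1 UMIs, so in KO more Spp1 lay outside the members than in them.

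**Figure D2:**
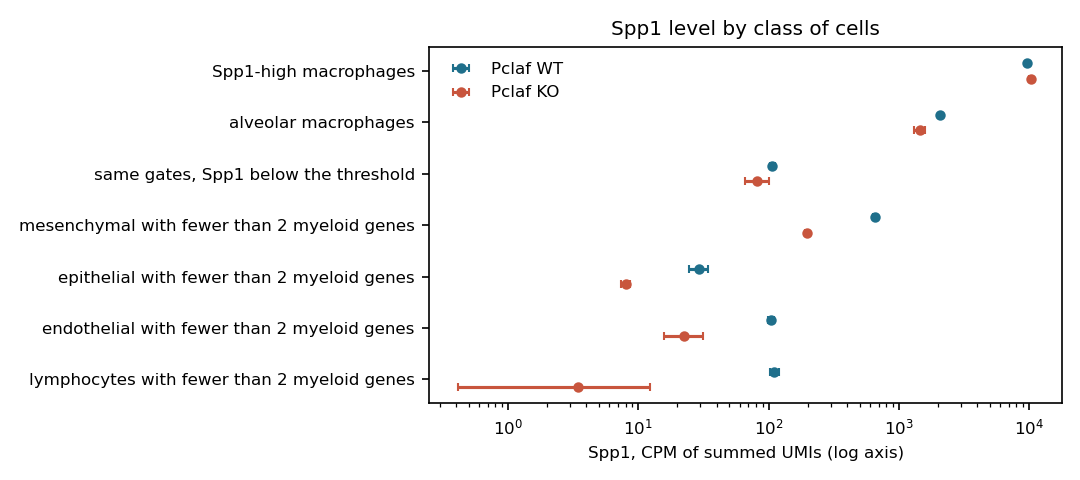
Spp1 in CPM of summed UMIs (log axis) for 7 classes of cells in the WT and KO libraries, with 95% counting intervals. The members lie at 9651 and 10376 CPM, above alveolar macrophages at 2086 and 1444, and lymphocytes with fewer than 2 macrophage genes at 111 and 3.42 give the background.

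The label of profibrotic macrophages rests on markers that the rule itself used beside Spp1, so their detection is no check of it. Cd68, a lysosomal glycoprotein of macrophages, was detected in 55.0% of WT and 59.1% of KO members, and Ctss, a lysosomal protease that trims the invariant chain, in 87.5% and 86.4%. Cd68 stood at 814 CPM in WT members, 235 in C1q-positive macrophages without Spp1 and 517 in alveolar macrophages. Outside the rule, Csf1r, the receptor for the macrophage growth factor, was detected in 35.5% of WT and 18.2% of KO members, and Mertk, a receptor for dying cells, in 33.4% and 20.5%. No measure of fibrosis was taken on them, and they are called Spp1-high macrophages here. The name fits least in the 224 WT members of 1000 up to 3000 UMIs, where neutrophil genes summed to 6010 CPM with Spp1 left out of the totals. Those sums were 221 CPM under 1000 UMIs and 310 at 3000 or more, and 82.7, 58.2 and 163 in the KO depth classes. Whether neutrophils are among the members was not tested.

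Within their own library the members were set against C1q-positive macrophages, cells of the same conditions with 0 Spp1 UMIs and at least 2 of C1qa, C1qb and C1qc (1077 in WT, 51 in KO). Since the rule chose members on these cells, the ratios are descriptive. Over all genes with at least 10 UMIs, 3.73% were at least 2-fold higher in WT members and 13.9% at least 2-fold lower (484 and 1801 of 12990). In KO 22% were higher and 12% lower, of 5242 genes, with far fewer counts behind each. The median gene stood at -0.27 on the log2 scale in WT and 0.18 in KO, and TMM scaling would move these 2 comparisons by -0.28 and 0.16.

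The programme of lipid-laden, Spp1-producing macrophages was higher in the sums, and most so among deep cells. Summed over all depths, 13 of its 15 genes were at least 2-fold higher in WT (median log2 ratio 1.81) and 14 in KO (2.36), and none was lower. With Spp1 left out of the totals, the programme sums under 1000 UMIs were 12547 CPM in WT members and 8806 in C1q-positive cells. From 1000 up to 3000 UMIs they were 13227 and 11548, and at 3000 or more 32357 and 10159. The KO sums were 23560 and 15425, 16111 and 10818, and 39744 and 12960. Gpnmb stood at 1138 CPM in WT members and 35.5 in C1q-positive cells, a log2 ratio of 5.00 (4.76 to 5.26), and in KO at 1781 against 0 CPM, at least 6.47 at the floor of 3 counts. Gpnmb was thus low or at 0 in the C1q-positive cells of either library. Atp6v0d2, a subunit of the proton pump that acidifies lysosomes, was higher by 4.65 in WT and 4.76 in KO, and Syngr1, a synaptogyrin of vesicle membranes, by 4.73 and 3.41. Fabp5, which carries fatty acids inside the cell, was higher by 3.60 in WT and 2.503 in KO. Trem2, a lipid-sensing receptor, was higher by 1.79 and 1.19, and Lgals3, which encodes galectin-3, by 1.59 and 2.36. Mmp12, the macrophage elastase, and Hmox1, the haem-degrading enzyme, missed 2-fold in WT, at 0.06 and 0.49, while in KO they stood at 1.25 and 1.67 and Apoe at 0.84. Among the highest WT ratios were also Slc39a2, a zinc importer, at 5.05 on 92 against 2 UMIs, and Rnf128, a ubiquitin ligase, at 4.81.

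Lysosomal genes were higher as a group in the sums, and most so among deep cells. With Spp1 left out of the totals, they summed under 1000 UMIs to 11299 CPM in WT members and 7893 in C1q-positive cells. From 1000 up to 3000 UMIs the WT sums were 11339 and 7418, and at 3000 or more 28579 and 7816. The KO sums were 15872 and 7840, 12214 and 9116, and 28027 and 7513. Summed over all depths, 13 of 20 genes were at least 2-fold higher in WT (median 1.22) and 15 in KO (1.51), with none lower. The list shares Cd63, Ctsk and Atp6v0d2 with the programme. Ctsd, the aspartic protease cathepsin D, stood at 7462 CPM in WT members against 530 (log2 ratio 3.82, 3.75 to 3.88) and at 7589 against 381 in KO (4.32). In WT cells under 1000 UMIs Ctsd stood at 2866 against 1130.5 CPM, and at 3000 or more at 8383 against 503. The cysteine proteases followed, Ctsl with 2.53 in WT and 2.74 in KO and Ctsb with 1.87 and 1.94. Gla, alpha-galactosidase, was higher by 1.94 in WT. The membrane protein Lamp1 was higher by 0.99 in WT and 1.41 in KO, and Npc2, a cholesterol carrier, by 0.83 in WT but lower by 0.58 on the log2 scale in KO. All 20 genes stood above 0 in WT and 16 of 20 in KO. CACGTG, the E-box that the lysosomal regulators of the MiT/TFE family bind, was searched in the same 250-base windows on both strands and was present in 5 of the 14 lysosomal genes with a window (35.7%), against 6.86% of all genes. The 5 stretches are printed because they hold this match, with 1 CACGTG of each in capitals and a second one of Lamp1 left in lower case. They come from chr2:164833734-164833772 (plus strand), chr7:142388040-142388077 (minus), chr13:64370724-64370770 (minus), chr8:13159073-13159132 (plus) and chrX:134601200-134601255 (minus) of GRCm38.p6.
Ctsa: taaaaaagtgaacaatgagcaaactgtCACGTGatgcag
Ctsd: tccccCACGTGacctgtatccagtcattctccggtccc
Ctsl: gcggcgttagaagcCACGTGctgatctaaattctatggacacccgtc
Lamp1: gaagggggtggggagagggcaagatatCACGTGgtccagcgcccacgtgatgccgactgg
Gla: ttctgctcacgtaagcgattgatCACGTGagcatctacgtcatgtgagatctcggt
None of the 10 programme genes with a window held CACGTG, and neither did the 5 MHC class II genes. The AP-1 sequence TGACTCA stood in 1 of the 10 programme genes and in 5.16% of all genes. That 1 gene was Mmp12 (chr9:7347303-7347363, plus strand), shown as TGAGTCA, the same site read on the other strand.
Mmp12: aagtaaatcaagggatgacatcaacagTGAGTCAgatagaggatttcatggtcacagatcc

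A list of transcription factors was counted in the same comparison, and whether they act on these genes was not tested. Of 20 listed factors, 3 were at least 2-fold higher and 1 lower in WT (median 0.16), and of 19 measured in KO 9 and 1 (0.94). Bhlhe41, a repressor of the helix-loop-helix family that keeps alveolar macrophages in their state, was higher by 3.17 (94.1 against 10.5 CPM), and in KO by at least 2.95 against 0 UMIs. Tfec, a macrophage member of the MiT family, was higher by 1.75 in WT on 373 UMIs, and by 0.44 in KO on 12 UMIs with an interval of -1.17 to 2.30. Mitf differed by 0.23 in WT and 1.27 in KO. Maf, a factor of resident tissue macrophages, was lower in WT members by 1.16 on the log2 scale, at 103 against 231 CPM.

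Lipid and iron handling genes pointed the same way in most cases. Of 15 lipid genes measured in WT, 10 were at least 2-fold higher (median 1.23), and of 13 in KO, 10 were (2.503, or 1.87 with genes at 0 set to the floor). The list shares Fabp5, Lpl, Plin2 and Apoe with the programme and Lipa with the lysosome list. Apoe, the lipoprotein that exports cholesterol, stood at 14000 CPM in WT members against 6970 (1.01) and at 16827 against 9433 in KO (0.84). Cd36, a scavenger receptor for oxidised lipid, was not higher in either library, at 361 against 462 CPM in WT and 439 against 508 in KO. Of 12 iron and oxidative stress genes 6 were at least 2-fold higher in WT, and 4 of 9 in KO. The ferritin light chain gene Ftl1 was higher by 1.98 in WT and 1.99 in KO, and the heavy chain gene Fth1 by 1.49 and 1.56. The 2 ferritin chains thus had near-equal ratios in the libraries.

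Secreted signals and matrix genes differed gene by gene. Of 14 growth factor and matrix genes 4 were at least 2-fold higher in WT members and 1 lower, and of 13 measured in KO 8 and 1. Fn1, which encodes fibronectin, stood at 1400 against 414 CPM in WT (1.76) and 1021 against 474 in KO (1.11). Thbs1, a thrombospondin that activates latent TGF-beta, was higher by 1.46 in WT. Inhba, the subunit of activin A, was higher by 4.11 in WT on 96 UMIs. Tgfb1 stood at 199 against 161 CPM in WT, and Pdgfc, a growth factor for fibroblasts, at 68.6 against 44.4. Among 13 proteases and inhibitors 5 were at least 2-fold higher in WT, and 6 of 9 in KO, with Mmp19 at 2.23 and Timp2, an inhibitor of metalloproteases, at 1.20 in WT. Of the osteopontin receptors, Cd44 was at 528 CPM in WT members and 369 in C1q-positive cells, and the integrin subunit Itgav at 84.0 and 126. Of the receptor genes 0 of 9 were at least 2-fold higher and 2 lower in WT, and 3 of 7 higher and 2 lower in KO. Slc7a2, an importer of cationic amino acids, was higher by 2.48 in WT and 1.73 in KO.

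Antigen presentation stood out on the other side. All 8 MHC class II genes were at least 2-fold lower in WT members (median -1.77), and all 7 measured in KO were (-3.34). Their summed level was 7150 CPM against 25265 in WT and 1569 against 20242 in KO. H2-Aa, the alpha chain of the I-A molecule, stood at 1314 CPM in WT members and 4625 in C1q-positive cells, and at 333 and 3360 in KO. Cd74, the invariant chain, stood at 3200 against 10529 CPM in WT and 718 against 9466 in KO. Dendritic cell genes, which could carry MHC class II RNA, summed to 29.7 CPM in WT members and were at least 2-fold lower than in C1q-positive cells for 6 of 7 genes. AT2 genes were lower in members too, at 626 against 3149 CPM in WT (8 of 9 at least 2-fold lower) and 6114 against 86959 in KO (9 of 9). The part of either list in the MHC class II difference was not tested. Among 18 interstitial macrophage genes 9 were at least 2-fold lower in WT (median -0.99) and 8 of 16 in KO (-0.88). C1qa itself was at 2509 against 2604 CPM in WT, although C1q genes chose the compared cells. Cx3cr1, the fractalkine receptor, was lower by 2.04 on the log2 scale in WT, and the haemoglobin scavenger receptor Cd163 stood at 1.28 against 52.5 CPM. The lowest ratio was that of Cxcl13, the B cell chemokine, with 1 UMI in WT members against 264. Mgl2, a lectin of antigen-presenting macrophages, stood at 36.7 against 419 CPM.

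**Figure D3:**
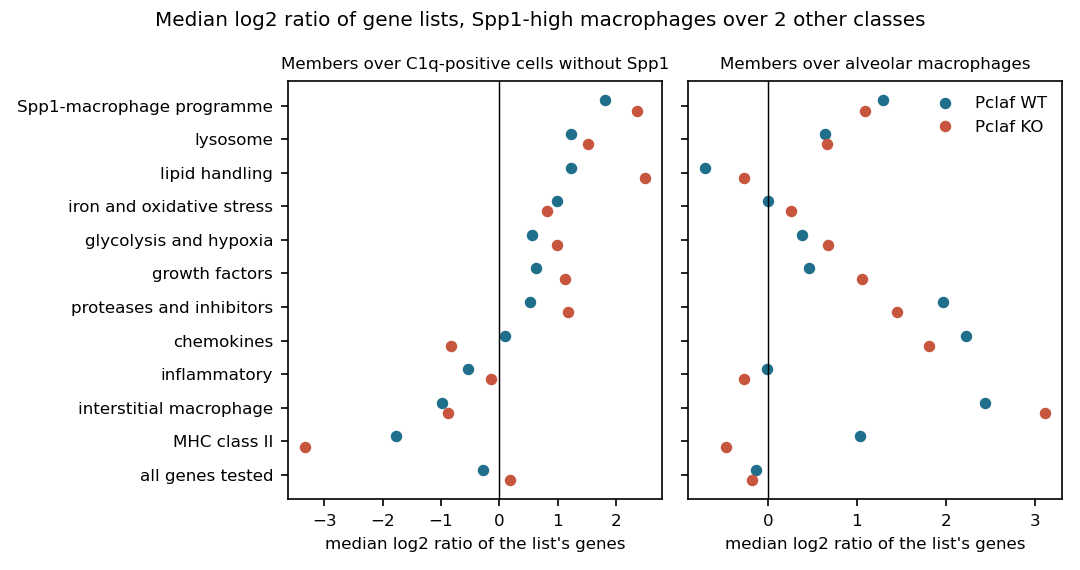
Median log2 ratio of 11 gene lists and of all genes tested, members over C1q-positive cells without Spp1 (left) and over alveolar macrophages (right), in WT and KO. Over C1q-positive cells the programme lies at 1.81 and 2.36 and MHC class II at -1.77 and -3.34, and the medians carry no test.

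Against alveolar macrophages (655 in WT, 48 in KO) the members differed in other genes. In WT 7.02% of 12744 genes were at least 2-fold higher and 8.62% lower, and in KO 9.37% of 6393 genes were higher and 16% lower. Of the 14 alveolar macrophage genes all were at least 2-fold lower in both libraries, but 7 of them are in the rule. Interstitial macrophage genes were at least 2-fold higher for 12 of 18 in WT (median 2.44) and 9 of 13 in KO (3.11). C1qa stood at 2509 against 110 CPM in WT (4.51) and 1721 against 29.2 in KO (5.88). Apoe stood at 14000 against 471 CPM in WT (4.89) and 16827 against 208 in KO (6.34). Chemokine genes were at least 2-fold higher for 10 of 14 in WT (median 2.22) and 5 of 9 in KO (1.81). Ccl7, a chemokine for monocytes, had 139.5 against 1.98 CPM in WT (6.14), but in KO only 8 UMIs in 4 members, at 30.3 against 19.5 CPM. Ccl2, which binds the same receptor Ccr2, was higher by 4.25 in WT and 1.81 in KO. Programme genes were split, with 8 of 15 at least 2-fold higher and 4 lower in WT. Cd9, a tetraspanin of the programme, was lower in members by 1.04 on the log2 scale in both libraries. Lysosomal genes were closer to alveolar macrophages than to C1q-positive cells, with 6 of 20 at least 2-fold higher and 2 lower in each library, and a median of 0.65 in WT and 0.66 in KO. Htr2c, a serotonin receptor gene, stood at 4.22 against 270 CPM in WT, and Folr2, a folate receptor of interstitial macrophages, at 12.3 against 0.248.

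A further set, 357 WT and 28 KO cells with 3 or more of a set of monocyte genes such as Ly6c2, Ccr2, Vcan and Plac8 and no Spp1 or C1q UMI, was meant as monocytes. Its leading genes in WT over the members included Siglech, Ly6d, Ccr9 and Cd209d, of which Siglech and Ccr9 are known from plasmacytoid dendritic cells, so the set is called by its gate. In WT 11.8% of 12260 genes were at least 2-fold higher in the members and 14.7% lower, and in KO 23.9% of 5090 higher and 14.9% lower. Of the 15 programme genes 14 were at least 2-fold higher in WT (median 4.31) and 15 in KO (4.66, or 3.38 at the floor). Gpnmb had 6204 UMIs in WT members and 13 in the gate, a log2 ratio of 6.97. MHC class II had a median of 0.01 in WT, while in KO 6 of 7 genes were at least 2-fold lower in members (-1.73, 1569 against 4587 CPM).

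Members also differed along the Spp1 level. WT members with at least 100 Spp1 UMIs per 10000 (265 cells) were set against those with 10 to 20 (482 cells), leaving Spp1 out of the totals. Of 6375 genes with at least 50 UMIs, 1.85% were at least 2-fold higher in the upper band and 8.72% lower. Of 20 lysosomal genes 12 were higher and 1 lower (median 1.04), and of 15 programme genes 8 were higher and 2 lower (1.16). Of 7 MHC class II genes 6 were lower (-1.88). Gpnmb went from 209 CPM at 10 to 20, through 765 at 20 to 50 and 1236 at 50 to 100, to 1976 at 100 and above in WT. In KO the same bands gave 52.8, 907, 1875 and 4168 CPM, on 22, 30, 13 and 23 cells. Gpnmb was thus higher in each successive band of either library. Ctsd went from 3139 to 12157 CPM in WT and from 1928 to 12935 in KO, and Fabp5 from 1659 to 6471 and from 1849 to 9293. H2-Aa went from 2178 to 593 CPM in WT and from 449 to 154 in KO, and Cd74 from 5200 to 1610 and from 1215 to 247. Npy, which encodes neuropeptide Y, had the largest ratio (3.86) on 70 against 3 UMIs, and Hpse, heparanase, followed Gpnmb and Syngr1 at 2.51.

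Depth and RNA of other cells moved with these bands. The median depth of the WT bands was 872, 1028, 1929.5 and 6878 UMIs, since 1 Spp1 UMI in a shallow cell falls in the lowest band. All 8 endothelial, 5 mesenchymal, 4 neutrophil and 4 erythroid genes with enough UMIs were at least 2-fold lower in the upper band. S100a9, a neutrophil alarmin, stood at 5.56 CPM there against 604. By depth alone, programme genes without Spp1 summed to 12547 CPM in WT members under 1000 UMIs, 13227 from 1000 up to 3000 and 32357 at 3000 or more. The KO sums were 23560, 16111 and 39744 CPM. Gpnmb was at 167, 237 and 1320 CPM in WT and at 248, 174 and 2204 in KO. Members under 1000 UMIs thus held less of the programme per UMI than those of 3000 or more, but in KO more than the middle ones. MHC class II did not follow depth in WT, at 6120, 5693 and 7453 CPM. In KO it stood at 2948 CPM in the shallow, 2792 in the middle and 1249 in the deep members. How far depth and other RNA set the band differences was not tested.

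**Figure D4:**
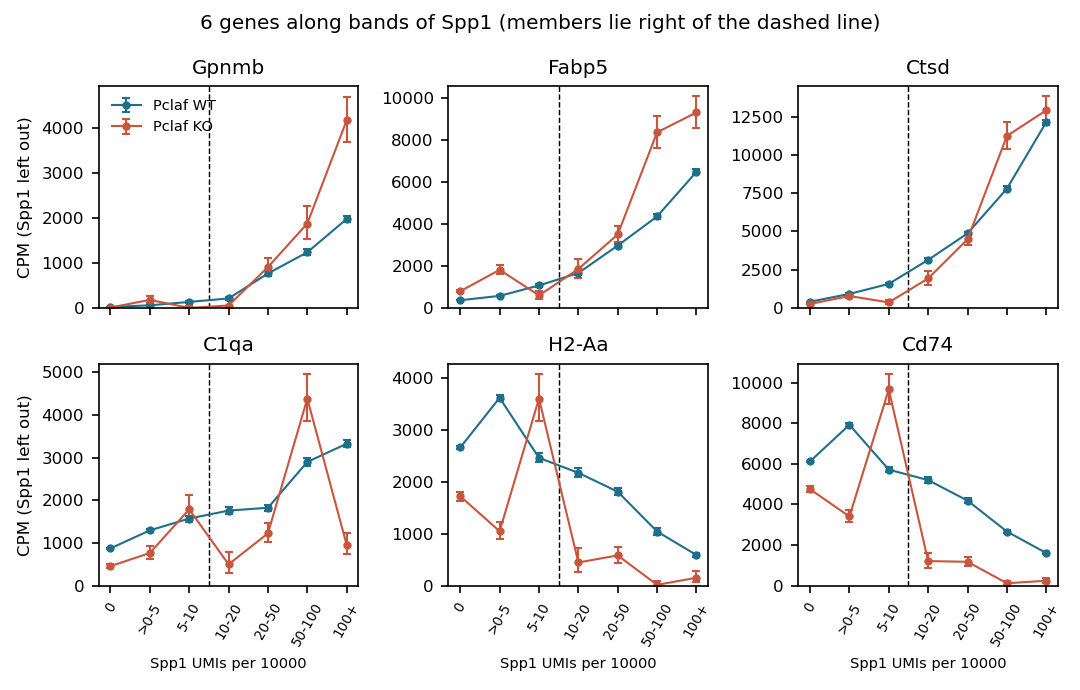
Levels of 6 genes in CPM, with Spp1 left out of the totals, along 7 bands of Spp1 per 10000 UMIs in WT and KO cells of the same conditions, with 95% counting intervals. Gpnmb, Fabp5 and Ctsd are higher and H2-Aa and Cd74 lower in the top band than at 10 to 20, and the dashed line marks where membership begins.

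Single cells combined these genes unevenly. Gpnmb was detected in 515 WT members (36.0%) and Trem2 in 664. Of the Gpnmb-positive WT members 82.1% had Trem2, against 26.3% of the Gpnmb-negative, and 78.3% against 42.7% had C1qa. H2-Aa was found in 66.6% of Gpnmb-positive and 49.7% of Gpnmb-negative WT members, but in 25% and 31.7% of the KO members. The Gpnmb-positive cells were deeper, with a median of 6991 UMIs against 832 in WT and 7026.5 against 705 in KO, which raises every such share. Thinned to 1000 UMIs, 36.7% of 781 WT members had Gpnmb (33.4 to 40.2), 37.3% Trem2, 59.4% C1qa and 45.2% H2-Aa. The same thinning gave Gpnmb in 1.49% of C1q-positive cells, H2-Aa in 80.7% and C1qa in 77.1%. The difference in Gpnmb between the classes was thus present at equal depth in cells of at least 1000 UMIs. This thinning left out 649 WT members and 207 C1q-positive cells under 1000 UMIs, where Gpnmb stood at 167 and 68.1 CPM.

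The knockout gene itself was counted first in the comparison of genotypes. Pclaf had 123 UMIs in 82 WT members (22.6 CPM) and 3 UMIs in 2 KO members (11.3 CPM, interval 2.34 to 33.2). In all other kept cells it stood at 40.3 CPM in WT and 5.17 in KO. The 3 KO counts are too few to check the label within the members, and whether the counted 3' end lies in the deleted part is not given in the sources used here. Across 11796 genes with at least 10 UMIs, 8.28% were at least 2-fold higher in KO members and 16.1% lower, with a median of -0.15 (0.04 with genes at 0 set to the floor of 3 counts).

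MHC class II genes were lower in KO members than in WT members. The summed level was 1569 CPM in KO and 7150 in WT, and all 8 genes were at least 2-fold lower (median -2.07, or -1.78 at the floor). H2-Aa stood at 333 CPM in KO (88 UMIs) and 1314 in WT (7165 UMIs), a log2 ratio of -1.98 (-2.30 to -1.68). H2-Ab1, its beta chain, had -2.61, H2-Eb1 of the I-E molecule -2.47 and Cd74 -2.16. The peptide loading genes H2-DMa and H2-DMb1 had -1.57 and -1.54. Ciita, the master activator of the class II genes, rested on 3 KO UMIs, and H2-DMb2 had 0 KO UMIs and 57 in WT, below the floor, so neither ratio is secure. The WT counts were spread over many cells, with H2-Aa in 798 of 1430, while 26 of 88 KO members had it and 39.8% of those KO UMIs came from 1 cell. The ratios were smaller in the other macrophages: in C1q-positive cells 1 of 8 genes was at least 2-fold lower in KO (median -0.44, 20242 against 25265 CPM), where 28.8% of all genes were, and in alveolar macrophages 0 of 8 (-0.32), where 16.7% were. No test of this difference between classes could be made with 1 library each. In members of at least 3000 UMIs the sum was 1249 CPM in KO and 7453 in WT, and the median ratio was -2.28. The value depended on the threshold that chose the members, with a median of -0.71 at 5 Spp1 UMIs per 10000, under 2-fold. In the band just below the threshold, 5 to 10 per 10000, the direction was the other way, with MHC class II at 20368 CPM in 17 KO cells against 13610 in 391 WT cells, leaving Spp1 out of the totals.

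Other RNA moved with the same contrast. In all other kept cells MHC class II summed to 7209 CPM in WT and 3076 in KO. Dendritic cell genes summed to 29.7 CPM in WT members and 3.78 in KO, where 6 of 7 (Flt3, Xcr1, Cd209a, Ccr7, Siglech and Batf3) were at 0. B and plasma cell genes summed to 46.6 and 7.56 CPM, with Ms4a1, Ighm and Jchain at 0 in KO. The KO levels of both lists are at or near the level of 1 or 2 UMIs (3.78 CPM each). Their part in the MHC class II difference was not tested.

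The programme itself showed no shift common to all its genes. Of its 15 genes 2 were at least 2-fold higher in KO members and 2 lower, with a median of 0.32. In sign, 11 of them stood above 0 and 4 below, beside 4792 and 7004 of all genes tested. They summed to 35575 CPM in KO and 29096 in WT. Spp1 stood at 9651 CPM in WT and 10376 in KO. Apoe differed by 0.27, Fabp5 by 0.47, Trem2 by -0.11 and Cd9 by -0.15 (log2, KO over WT). Gpnmb stood at 1781 against 1138 CPM (0.65), but 205 of its 471 KO UMIs came from 1 cell, and without the 5 deepest KO cells the ratio was -0.60. Without these cells the programme median was -0.27 as well. Plin2, which coats lipid droplets, was higher by 1.19 with 139 of 319 KO UMIs in 1 cell, and by 0.56 without the 5 deepest. Lpl, lipoprotein lipase, was at -1.19, with 71 KO UMIs in 18 cells, and Mmp12 at -1.14 with 42 UMIs in 5 cells. The direction of Mmp12 turned at a Spp1 threshold of 50 (0.54) and in Xist-only members (0.51). Of the 20 lysosomal genes 1 was at least 2-fold higher and 0 lower (median -0.02), and Ctsd was at 7589 CPM in KO and 7462 in WT. Of 20 glycolysis and hypoxia genes 18 were measured, with 1 higher and 1 lower.

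**Figure D5:**
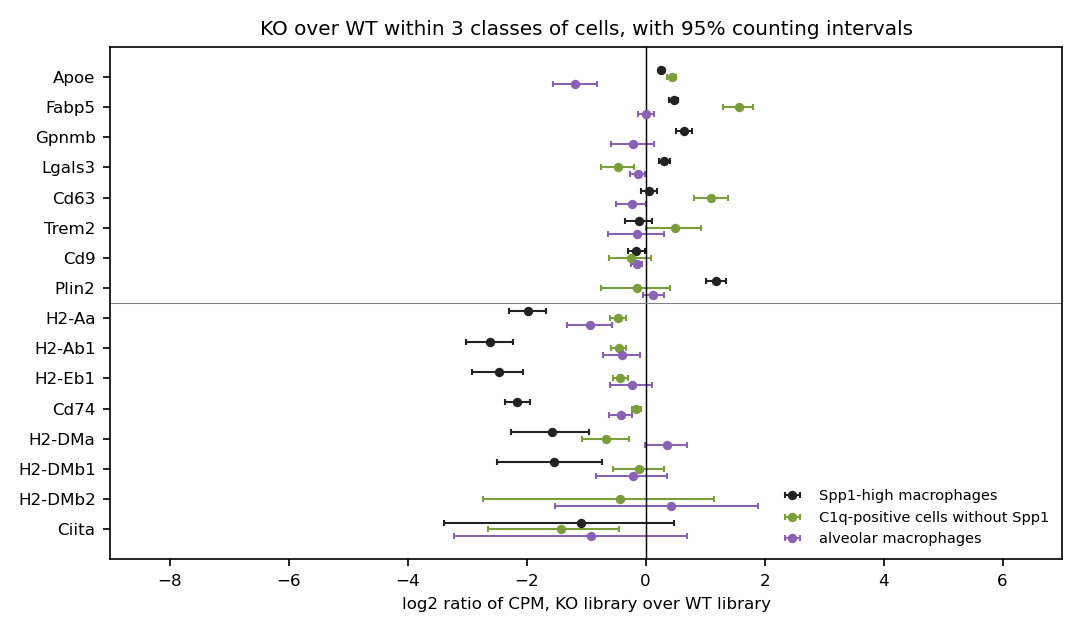
Log2 ratio of CPM, KO library over WT library, for 8 programme genes (above the grey line) and 8 MHC class II genes within members, C1q-positive cells without Spp1 and alveolar macrophages, with 95% counting intervals. H2-Aa lies at -1.98 and Cd74 at -2.16 in the members, and ratios with 0 UMIs on one side are not drawn.

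Among genes at least 2-fold higher in the members than in all other kept cells of both libraries, the highest ratios mostly rested on a few KO cells and the lowest on few KO UMIs. Of 410 such genes 16 were at least 2-fold higher in KO and 31 lower (median -0.09), beside 3.8% and 14.7% of all genes with at least 50 UMIs. Of all genes with at least 10 UMIs 4.24% in WT and 33.2% in KO met the condition that chose them, 2-fold higher in members than in other kept cells. With at least 50 UMIs 606 of 15760 genes did in WT and 3096 of 15939 in KO. The KO numbers are no usable background, since members held 264458 UMIs and the other kept cells 101689919. With 0.5 added to a count of 0, rare genes such as Ccl24 passed in KO on 0 member UMIs against 8. Inhba had the highest ratio, 216 CPM in KO against 17.6 in WT (3.61), on 57 KO UMIs in 4 cells with 38 in 1. Cxcl3, a neutrophil chemokine, had all 17 KO UMIs in 1 cell, and 42 of 49 WT UMIs in 1 cell too. Slc39a2, a zinc importer, had 16 KO UMIs in 4 cells and Npy 12 in 3. Tbc1d9, a Rab regulator, was more evenly spread, with 75 KO UMIs in 21 cells and a ratio of 1.17 (0.81 to 1.52). At the low end, Ccl7 had 8 KO and 761 WT UMIs (-2.21, -3.42 to -1.22, but -0.16 with every cell weighted equally), and Ccl12, a related monocyte chemokine, 4 and 350 (-2.09). Tnf, the inflammatory cytokine, had 3 and 221, and Ccl24, an eotaxin, 0 and 78 UMIs, of which 75 lay in 1 WT cell. In all other kept cells these 4 genes were lower in KO too, Ccl7 by a log2 ratio of -2.52, Ccl12 by -5.46, Tnf by -3.84 and Ccl24 by -5.14. S100a4, a calcium-binding protein of motile cells, was lower on more counts, at 416 CPM in 32 KO cells against 1149 CPM in 782 WT cells (-1.47, -1.75 to -1.19). Weighting every cell equally brought S100a4 to -0.80, under 2-fold, and in all other kept cells it stood at 34.9 CPM in KO against 561. Of the 11 monocyte genes 6 were at least 2-fold lower in KO (median -1.33, or -0.74 at the floor). Among them was Ccr2, the receptor for Ccl2, Ccl7 and Ccl12, at 37.8 against 166 CPM, with all its KO UMIs in 2 members. In C1q-positive cells 8 of these 11 were at least 2-fold lower in KO (median -1.13) and in alveolar macrophages 4 (-0.55). Of all genes 16.1% were at least 2-fold lower in KO in the members, 28.8% in C1q-positive cells and 16.7% in alveolar macrophages. Outside these genes, Retnla, a secreted resistin-like protein of alternative activation, stood at 745 CPM in KO against 30.3, with 159 of 197 KO UMIs in 1 cell. Its log2 ratio fell from 4.62 to 1.60 at a Spp1 threshold of 50, and in all other kept cells Retnla stood at 1394 CPM in KO against 314.

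RNA of epithelial cells set the highest ratios of all genes. The highest 8 included Bpifa1, Scgb3a1, Scgb3a2 and Scgb1a1 of airway cells and Slc34a2 and Cxcl15 of AT2 cells. Airway genes summed to 20245 CPM in KO members and 607 in WT (4 of 5 measured genes at least 2-fold higher, Foxj1 at 0 in KO), with Scgb1a1 the most abundant at 18162 and 515 CPM. AT2 genes summed to 6114 and 626 CPM (8 of 9 higher), led by Sftpc, found in 97.7% of KO and 35.1% of WT members. Of these KO UMIs, 5 cells held 89.7% of the airway ones and 1 cell 46.9% of the AT2 ones. In all other kept cells the AT2 sums were 112900 and 8797 CPM, in the same order. The lowest ratios included S100a9, with 0 UMIs in KO against 1642 in WT, and the haemoglobin genes Hba-a2 and Hbb-bt. Neutrophil genes summed to 144 CPM in KO and 693 in WT, led by S100a8, with S100a9 and Cxcr2 at 0 in KO. Erythroid genes summed to 15.1 and 356 CPM, and the 6 T and NK cell genes, led by Gzma in WT, were all at 0 in KO against 105 CPM. Together, 847 WT members (59.2%) and 86 KO members (97.7%) held a UMI of Cdh5, Cldn5, Sftpc or S100a8. The part of this RNA in the other genotype differences was not tested.

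Doublets were estimated with Scrublet, which marked 71 WT members (4.97%) and 1 KO member (1.14%). None was removed. By sex-linked RNA, members were 12.5% (10.4 to 14.8) of the WT barcodes of the myeloid gate with Xist only and 14.9% (13.5 to 16.4) of those with Y-linked UMIs only. Of all kept WT cells they were 2.42% (2.00 to 2.89) and 3.85% (3.46 to 4.27). In KO the shares were 14.96% of 127 barcodes of the myeloid gate with Xist only and 2.27% of 44 with Y-linked UMIs only, the latter on 1 member. The intervals count cells of 1 library and not mice, so they compare no sexes. Neither kind of UMI was found in 937 WT and 67 KO members. Among members with Xist only, 116 in WT and 19 in KO, the MHC class II median was -2.29.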

How the data were processed

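The assay was 10x 3' v3.1 single-cell RNA sequencing, with 1 library of lung cells for each genotype. What the authors deposited were unnormalized UMI counts, per gene and per barcode. Per the file headers they were made with Cell Ranger 5.0.0, whereas the submitters' processing notes name Cell Ranger 3.1.0 and STAR, with GRCm38. The number of animals behind each library is not given in the sources used here. No per-sample column was unmapped (0). Members and lists were chosen with earlier results of these data known.

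UMIs were summed over the cells of a class and given as CPM, counts per 1000000 UMIs of that class. Log2 ratios of CPM have exact conditional 95% Poisson intervals, with 0.5 added to both counts where 1 side was 0, and shares have exact binomial (Clopper-Pearson) intervals. The floor for a count of 0 was 3 UMIs. Genes needed 10 UMIs over both sides, and 50 to be named. A gene counted as past the fold at 2-fold. The unit would allow a count model, but 1 library per genotype allows no test, p-value or count of changed genes. The rule for named genes took the genes of the rule, examples from each list by highest level or largest ratio, the 10 highest and lowest WT ratios per class, and the 8 highest and lowest KO over WT ratios, over all genes and over member-enriched genes. Some of these ends, such as Cyp4f18, Ccl5 and Aff3, are not described. Other list genes named in the text, such as Trem2, Lamp1, Cd36, Itgav, Tgfb1 and Pdgfc, were picked after their values were seen. Python 3.11.15, numpy 2.4.6, scipy 1.17.1, pandas 2.3.3 and Scrublet through scanpy 1.11.5 were used, with TMM from edgeR 4.0.16 as an alternative scaling. The calculations were tested on simulated data. Promoters came from RefSeq (GRCm38.p6), where 10 of 15 programme and 14 of 20 lysosomal genes had a window. Some genes are not reported here.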

Additional observations from a re-analysis of the deposited data

Results flagged for a closer look

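In 5 cases list medians lay on opposite sides of 0 in the 2 libraries or classes, each at least 0.3 from 0 and with at least 5 genes measured on either side. Other lists, nearer to 0 or with fewer genes measured, changed sides too and are not given here. None of these differences was tested, since each library is 1 sample, and all are log2 ratios. The 9 osteopontin receptor genes had a median of -0.59 in WT members over C1q-positive cells and 0.53 in KO, where 7 genes were measured and Itgb1 alone, on 56 and 22 UMIs, gave the median. Endothelial genes stood at -0.85 in WT members over C1q-positive cells and 2.43 in KO (1.99 with genes at 0 set to the floor of 3 counts), and over the Ly6c2 and Ccr2 gate at -0.52 in WT and 3.77 in KO (1.52 at the floor). The KO members held 149 endothelial UMIs, of which 39.6% came from 1 cell and 81.9% from 5. MHC class II stood at 1.03 in WT members over alveolar macrophages and at -0.48 in KO. Immediate early and stress genes, KO over WT, had a median of -0.45 in members and 0.32 in alveolar macrophages.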

How the results depend on the processing

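No paired analysis was possible because there was 1 library per genotype. Of 131 values that answer a comparison, 103 moved by less than their counting interval or by under 1.5 times. The share of members among kept cells (main 4.74% in WT, 0.563% in KO) became 6.03% in WT at a Spp1 threshold of 5 per 10000, 3.14% and 0.422% at 20, and 1.73% and 0.230% at 50. It became 3.82% in WT with at least 2 Spp1 UMIs, 3.43% and 0.228% with at least 1000 UMIs, 3.59% and 0.245% with at least 500 genes, and 5.05% and 0.180% with at least 3000 UMIs. Without cells holding Cdh5, Cldn5, Sftpc or S100a8 UMIs it became 1.93% and 0.0128%, and no KO ratio could be formed, as 2 KO members were left. Counts of genes past 2-fold follow the minimum of UMIs. At 20 UMIs they were 874 over C1q-positive cells, 833 over alveolar macrophages and 1028 over the Ly6c2 and Ccr2 gate in KO. At 1 UMI they were 7009 for KO over WT, 6002 and 5323 over C1q-positive cells, 5730 and 5914 over alveolar macrophages and 5126 and 5463 over the Ly6c2 and Ccr2 gate, in WT and KO. A threshold of 50 gave 3432 over C1q-positive cells in WT, and equal weights per cell 5483 for KO over WT (main 2880). Gpnmb was found in 36.7% of WT members at 1000 UMIs, 17.4% at 500 and 36.0% unthinned, and in 42.4% of KO members at 1000 and 15.9% at 500. Of ratios past 2-fold and medians past 0.5 on the log2 scale, those reversed were Mmp12 for KO over WT, 0.54 at a threshold of 50 and 0.51 in Xist-only members (main -1.14), Pdgfc over C1q-positive cells in KO, -0.30 with equal weights (main 1.68), and the protease median over alveolar macrophages in KO, -0.39 at 20 UMIs (main 1.45). Smaller ratios changed sign too. For KO over WT without the 5 deepest KO cells, Gpnmb came to -0.60 (main 0.65), Spp1 to -0.15 (main 0.10) and the programme median to -0.27 (main 0.32), and in Xist-only members Spp1 came to -0.18. The causes were not tested. Over 18 alternatives the KO over WT median of MHC class II ran from -2.72 (threshold of 50) to -0.71 (threshold of 5), of the programme from -0.27 to 0.62 and of the lysosome list from -0.50 to 0.02. With equal weights Ccl7 came to -0.16 and S100a4 to -0.80. Added after the data were seen were the thresholds of 50 and 3000 UMIs, equal weights, the 5 deepest KO cells and Xist-only members.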

Other observations

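Other gene groups were counted over C1q-positive cells, where 3.73% of all genes were at least 2-fold higher and 13.9% lower in WT members, and 22% higher in KO. Interferon-stimulated genes such as Isg15 had 0 of 10 at least 2-fold higher or lower in WT members over C1q-positive cells (median -0.21), but 3 of 5 measured were higher in KO (1.13). Inflammatory genes had 0 of 12 higher and 3 lower in WT (-0.54), and 2 of 8 higher and 2 lower in KO (-0.13). Of glycolysis and hypoxia genes 2 of 18 were higher in WT (0.57) and 7 of 15 in KO (0.99). Alternative activation genes had 1 of 9 at least 2-fold higher and 5 lower in WT (-1.09), and 2 of 6 higher and 2 lower in KO (0.04). Retnla stood at 30.3 CPM in WT members against 328 in C1q-positive cells, while in KO it stood at 745 against 534.

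Alveolar macrophage genes outside the rule were also found in the members. Fabp4, a fatty acid carrier, stood at 115 CPM in WT members, 22.4 in C1q-positive cells and 408 in alveolar macrophages. Over C1q-positive cells, the scavenger receptor gene Olr1 was higher by 1.99 and the cytokine gene Il18 by 1.33 on the log2 scale in WT members, whereas Ear2, an eosinophil-type ribonuclease, stood at 0.13 and Car4, a carbonic anhydrase, at 0.12. Slc7a2 stood at 124 CPM against 386 in alveolar macrophages.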
